A study of Homo sapiens with 48 samples.

Results

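The serine/arginine-rich (SR) splicing factors measured here were 10 genes of the 14685 in the deposited tables. They were chosen by name, with earlier results of these data known: SRSF1, SRSF2, SRSF3, SRSF4, SRSF5, SRSF6, SRSF7, SRSF10, SRSF11 and TRA2A. Each gene was found under its Ensembl identifier at every time point, and all 10 passed the filter on low counts. SR proteins bind exonic enhancer sequences through an RNA recognition motif (RRM), and their arginine/serine-rich tail, phosphorylated by the SRPK and CLK kinases, helps to recruit the U1 snRNP and U2AF to nearby splice sites. Several of them hold down their own mRNA by splicing in a poison exon, which sends the transcript to nonsense-mediated decay (NMD), and several shuttle to the cytoplasm, where SRSF3 and SRSF7 act with the export receptor NXF1. NCBP1, the protein modified in this study, is the larger protein of the complex that holds the cap of nuclear RNA, which binds new transcripts as they are spliced and exported.

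The cells were HEK293T, a human embryonic kidney line, of wild-type genotype per the labels and transfected in every arm with a plasmid for NCBP1 fused to Halo. In the T-REX arm the cells received Ht-PreHNE, a photocaged form of the lipid electrophile HNE that binds Halo, and then light, which frees HNE beside NCBP1. The controls were light alone, probe alone (Ht-PreHNE without light) and DMSO (vehicle without light). The study's methods define light alone as probe with light, the same words that describe T-REX, so that what light alone received is not clear from the sources used here. RNA was collected at 3, 6 and 12 h from 4 independent biological replicates of each arm, which gave 48 libraries. Transfection was transient, and the counts do not separate the plasmid's NCBP1 from that of the genome.

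Total counts per library lay between 23952455 and 37099535, and a library held 3824 to 22297 counts of each SR gene, so that counting error was small beside each level. The SD of 4 replicates, as a share of the mean, ran from 0.394% (SRSF4, probe alone 3 h) to 19% (SRSF5, DMSO 12 h). Of 6 genes of the HEK293T lineage, 5 were present in every library (NEFL, NEFM, LIN28B, VIM and IGF2BP1) and PAX2 was not listed, while of 8 markers of blood, endothelial, liver, fibroblast and squamous cells only COL1A1 was listed, at 2.13 to 6.07 CPM (read counts scaled to the same library size). Light alone 6 h replicate 3 and DMSO 12 h replicate 3 stood farthest from their groups, with a median deviation of 0.139 (log2) over genes against 0.0439 in the library closest to its group. NCBP1 was not even across the arms. At 12 h its mean level was 57500 ± 5340 CPM (SD, n = 4) under T-REX and 59200 ± 10000 with probe alone, against 40500 ± 6850 with light alone and 34600 ± 4550 with DMSO. A level in bulk RNA is a share of the library, so fewer cells of a kind and less RNA per cell cannot be told apart.

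RefSeq promoter windows (GRCh38.p14) were available for 8 of the 10 genes, and SRSF2 and TRA2A had no entry. The 250 bases before the start site, 5' to 3' on the plus strand, are shown for SRSF3, SRSF5 and SRSF6. SRSF5 rose over time, and SRSF3 and SRSF6 both fell, SRSF6 by more. The windows are chr6:36594112-36594361 for SRSF3, chr14:69766892-69767141 for SRSF5 and chr20:43457646-43457895 for SRSF6. Capitals mark matches, on either strand, to the 5 short motifs searched.
SRSF3: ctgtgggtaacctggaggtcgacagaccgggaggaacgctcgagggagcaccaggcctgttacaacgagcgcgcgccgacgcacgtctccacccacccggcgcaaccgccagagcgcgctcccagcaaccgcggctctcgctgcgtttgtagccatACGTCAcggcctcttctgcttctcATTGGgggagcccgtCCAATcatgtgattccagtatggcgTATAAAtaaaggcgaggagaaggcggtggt
SRSF5: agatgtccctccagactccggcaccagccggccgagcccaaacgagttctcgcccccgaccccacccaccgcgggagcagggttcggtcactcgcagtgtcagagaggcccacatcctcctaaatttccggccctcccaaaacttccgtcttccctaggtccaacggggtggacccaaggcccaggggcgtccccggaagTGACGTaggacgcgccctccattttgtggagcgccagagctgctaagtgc
SRSF6: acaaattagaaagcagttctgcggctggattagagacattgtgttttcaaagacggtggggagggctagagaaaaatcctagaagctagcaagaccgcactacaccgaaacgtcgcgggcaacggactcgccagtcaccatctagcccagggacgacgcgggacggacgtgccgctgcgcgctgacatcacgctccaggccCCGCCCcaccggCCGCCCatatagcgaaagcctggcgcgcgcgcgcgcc
The motifs were TGACGT (the core of the cAMP response element), CCAAT (the CCAAT box), TATAAA (the TATA box), GGGCGG (the GC box) and CACGTG (the E-box). In the SRSF3 window the capitals are the cAMP response element core and a CCAAT box on the other strand, a CCAAT box and a TATA box on the plus strand. The SRSF5 window held only the cAMP response element core, and the SRSF6 window only the GC box on the other strand, at 2 places. The matches did not overlap each other. TGACGT also occurred in the SRSF1 window, and CACGTG occurred in none of the windows of the 8 genes. Of 35116 RefSeq windows of this length, 7.1% held TGACGT, 32% CCAAT, 10.7% TATAAA, 42.6% GGGCGG and 6.34% CACGTG. A match describes the letters only.

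The comparison with each control asks which transcripts changed in cells whose NCBP1 had been modified. At 12 h, 5 of the 10 SR genes were lower under T-REX than with DMSO, and of these SRSF2 was also lower than with light alone. Against DMSO no member was called higher and those called lower were 5 of 10 (SRSF2, SRSF3, SRSF5, SRSF6 and SRSF7), in a comparison that called 10.9% of all genes and 6.79% lower. Against light alone at 12 h, 1 member was called, SRSF2, where 1.29% of all genes were called and 0.79% lower, and against probe alone no member was called, where 0.701% of genes were. A gene is called at an adjusted p of at most 0.05 in edgeR's quasi-likelihood test, adjusted over all 14685 genes. The median log2 fold change of the 10 members at 12 h was -0.139 against DMSO, -0.114 against light alone and -0.042 against probe alone, beside 0.003, 0.001 and 0.001 for all genes. The 3 comparisons share the T-REX libraries and are not independent. The study's rule asks for a call in the same direction against at least 2 controls, which SRSF2 alone of the 10 met, at 12 h and downward, as did 0.912% of all genes.

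**Figure D1:**
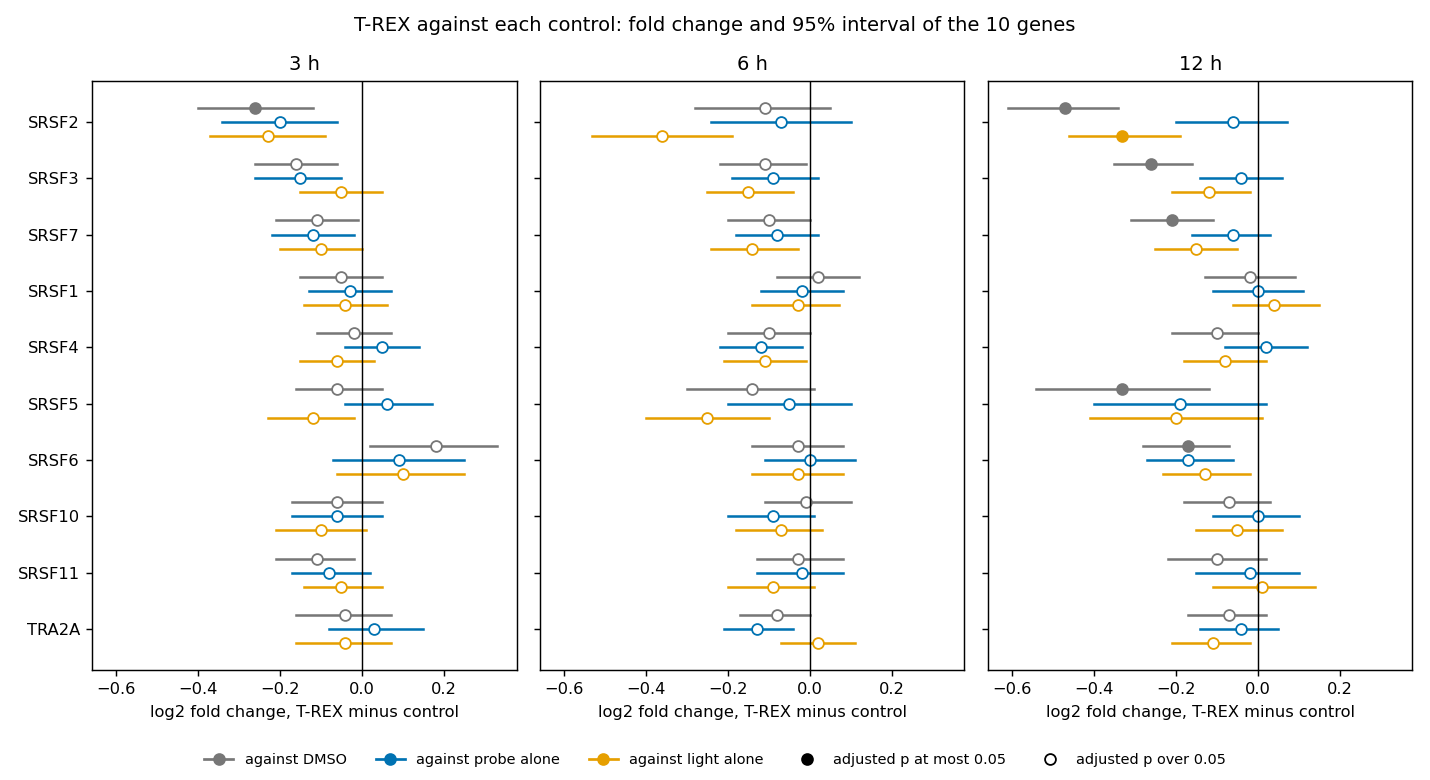
The log2 fold change of T-REX against each control, on the horizontal axis, is shown for the 10 genes at 3, 6 and 12 h, with bars for the 95% interval and filled points for an adjusted p of at most 0.05. SRSF2, SRSF3 and SRSF7 lay below 0 in all 9 comparisons, and 7 points are filled, of which 6 are at 12 h.

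At the earlier times few calls were made. At 3 h SRSF2 was called lower against DMSO, the only member, where 5.99% of all genes were called and 4.54% lower. In that comparison 5 members had an unadjusted p under 0.05 in edgeR, and DESeq2 called 2 members and limma 1. SRSF3 lay at -0.16 there, not called in the main fit but called under 6 of 23 alternatives. No member was called against light alone (0.197% of genes) or probe alone (1.05%), although 3 members had an unadjusted p under 0.05 in each, and DESeq2 and limma called none either. At 6 h no member was called against light alone (0.218% of genes), probe alone (0.109%) or DMSO (0.415%). At an unadjusted p under 0.05 there were 5, 2 and 2 members, and DESeq2 called 1, 0 and 0 and limma none. The members' medians at 6 h were -0.1, -0.074 and -0.093, with 9, 10 and 9 of 10 below 0, beside medians of 0.006, 0.005 and -0.002 for all genes. At 3 h the medians were -0.054, -0.041 and -0.06, beside 0.001, 0.024 and 0.031. Whether the T-REX difference varied with time was tested with interaction terms in a fit of all 48 libraries, and no member was called against light alone (0% of genes called), probe alone (0%) or DMSO (0.0545%). At an unadjusted p under 0.05 there were 1, 2 and 2 members, and DESeq2 called 0, 0 and 1. The member that DESeq2 called was SRSF6 (adjusted p = 0.0456), and edgeR called it too without T-REX 3 h replicate 4 (adjusted p = 0.0481).

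SRSF2, which has a single RRM, resides in nuclear speckles and controls the choice of many exons, moved farthest. At 12 h it stood at 150, 154, 137 and 151 CPM in the 4 T-REX libraries and at 145, 153, 156 and 163 CPM with probe alone. The light alone libraries held 175, 192, 189 and 189 CPM and the DMSO libraries 196, 202, 241 and 183 CPM. All T-REX libraries thus lay below all light alone and all DMSO libraries, and they overlapped with probe alone. Of all genes, 7.14% lay below light alone at 12 h in this way and 7.52% below DMSO. SRSF2 fell by 28.0% against DMSO (log2 fold change -0.47 ± 0.0660 (SE, n = 4 and 4), adjusted p = 8.6e-05 in edgeR's quasi-likelihood test) and by 20.4% against light alone (-0.33 ± 0.0659, adjusted p = 0.00738). Against probe alone the log2 fold change was -0.06 with a 95% interval of -0.20 to 0.07. Without DMSO 12 h replicate 3, the library with 241 CPM, the difference from DMSO was -0.38 and still called (edgeR's adjusted p = 3.5e-06).

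The same gene also separated the controls. At 12 h SRSF2 fell by 24.8% in probe alone against DMSO (-0.41 ± 0.0660 log2, adjusted p = 0.00136), and light alone against probe alone gave 0.26 (95% interval 0.13 to 0.40, adjusted p = 0.0652 in edgeR's quasi-likelihood test). The arms with the lower SRSF2 were those with the higher NCBP1: NCBP1 differed by 0.77 log2 between probe alone and DMSO and by -0.04 between T-REX and probe alone at 12 h. NCBP1 was also called higher under T-REX against DMSO at 3 h and against light alone at 6 h. The part of the NCBP1 level in the SRSF2 differences was not tested at any time.

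At 3 h the T-REX libraries held 291, 323, 300 and 288 CPM of SRSF2. They lay below all DMSO libraries (378, 374, 337 and 357 CPM) and all light alone libraries (334, 368, 366 and 340 CPM) and overlapped with probe alone (351, 405, 333 and 305 CPM). At 3 h 7% of all genes lay below DMSO in this way, and 4.56% below light alone. SRSF2 fell by 16.7% against DMSO (log2 fold change -0.26 ± 0.0674, adjusted p = 0.0253 in edgeR's quasi-likelihood test), a call lost without T-REX replicate 4 (adjusted p = 0.07), DMSO replicate 1 (0.091) or DMSO replicate 2 (0.084). The values were -0.23 against light alone (adjusted p = 0.124) and -0.20 against probe alone (adjusted p = 0.121). At 6 h SRSF2 stood at 187, 213, 197 and 180 CPM under T-REX, 240, 224, 306 and 226 with light alone, 199, 198, 223 and 197 with probe alone and 206, 223, 201 and 211 with DMSO. Replicate 3 of light alone was the high value, and the difference from light alone was -0.36 (adjusted p = 0.0698) with it and -0.24 (0.057) without it. That difference passed the threshold without light alone replicate 2 (edgeR's adjusted p = 0.04) or replicate 4 (0.024).

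**Figure D2:**
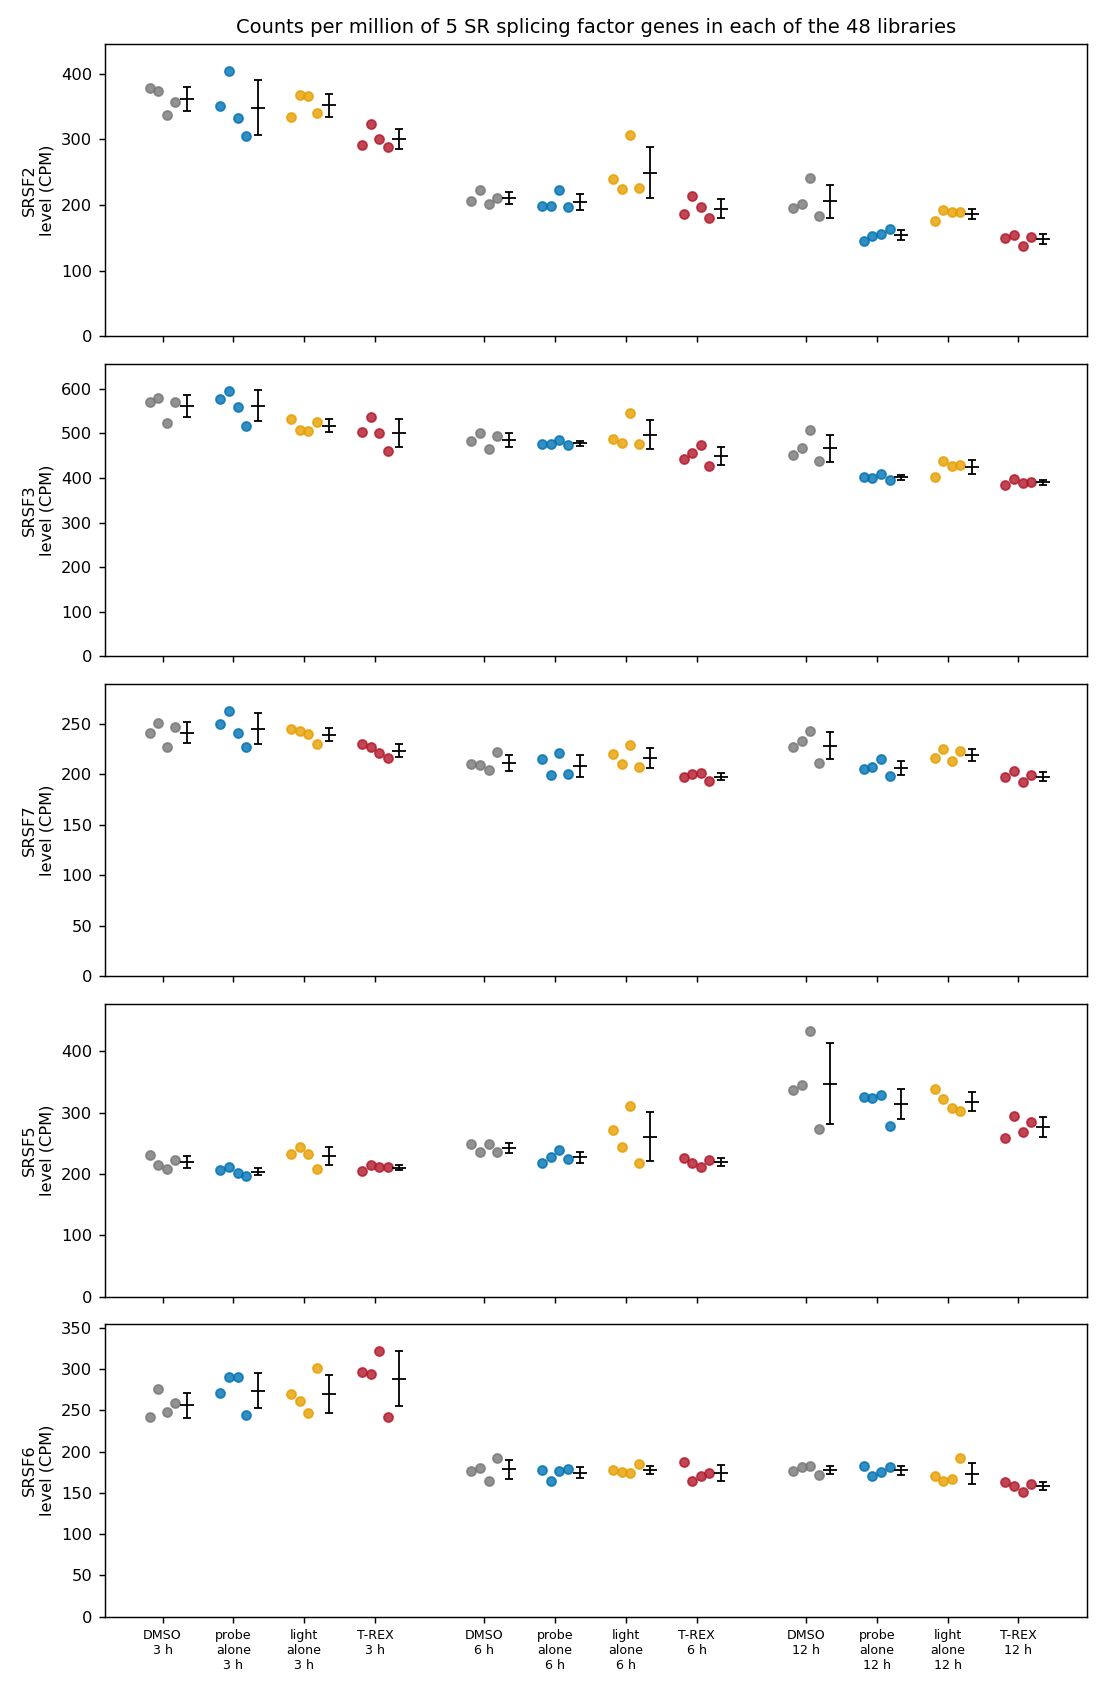
Each point is the level of a gene in 1 library, in CPM on a linear axis from 0, by arm and time, with the mean and SD of 4 libraries beside it. The 4 T-REX libraries of SRSF2 at 12 h lie at 137 to 154 CPM, near probe alone, and DMSO replicate 3 stands high for SRSF2, SRSF3 and SRSF5.

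SRSF3, the smallest SR protein, and SRSF7, which adds a zinc knuckle to its RRM, are adaptors for mRNA export, and at 12 h both fell against DMSO in the T-REX arm. SRSF3 stood at 385, 398, 388 and 392 CPM under T-REX and at 451, 467, 508 and 439 CPM with DMSO. The groups did not overlap, and SRSF3 fell by 16.3% (log2 fold change -0.26 ± 0.0474, adjusted p = 0.00124 in edgeR's quasi-likelihood test). With probe alone it stood at 402, 399, 409 and 395 CPM, which overlapped T-REX, and fell by 13.9% against DMSO (-0.22 ± 0.0474, adjusted p = 0.0117). With light alone SRSF3 stood at 402, 438, 426 and 430 CPM, above all T-REX libraries, but the difference of -0.12 was not called (adjusted p = 0.284). SRSF7 held 197, 203, 192 and 199 CPM under T-REX against 227, 233, 243 and 211 with DMSO, again without overlap, and fell by 13.5% (-0.21 ± 0.0481, adjusted p = 0.00664). Its light alone libraries (216, 225, 213 and 223 CPM) also lay above all T-REX libraries at -0.15 (adjusted p = 0.149 in edgeR's quasi-likelihood test), and probe alone (205, 207, 215 and 198 CPM) overlapped at -0.06 (0.689). Such a lack of overlap at 12 h held for 7.52% of all genes below DMSO and 7.14% below light alone.

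SRSF1, SRSF4, SRSF5 and SRSF6 carry an RRM followed by a pseudo-RRM. SRSF5 rose from 3 to 12 h in every arm, and at 12 h its mean was lowest under T-REX, with 258, 294, 268 and 285 CPM. DMSO held 336, 345, 433 and 273 CPM, light alone 338, 322, 308 and 303 and probe alone 326, 324, 329 and 278. The T-REX libraries lay below those of light alone and overlapped with DMSO and probe alone. At 12 h SRSF5 was 20.4% lower under T-REX than with DMSO (log2 fold change -0.33 ± 0.0988, adjusted p = 0.0395 in edgeR's quasi-likelihood test), while -0.20 against light alone (0.412) and -0.19 against probe alone (0.497) were not called. The SRSF5 call was lost when single libraries were left out: without DMSO replicate 3 the value was -0.20 (adjusted p = 0.14), and the call was also lost without T-REX replicate 1, 3 or 4 or DMSO replicate 1 or 2 (adjusted p from 0.064 to 0.11).

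SRSF6 at 12 h stood at 163, 158, 151 and 161 CPM under T-REX and at 176, 181, 183 and 172 CPM with DMSO. The groups did not overlap, nor did T-REX and probe alone (183, 171, 175 and 181 CPM) or light alone (170, 164, 167 and 192 CPM). The nearest T-REX and light alone libraries stood at 163 and 164 CPM. Taken 1 control at a time, 7.52% of all genes lay below DMSO in this way, 4.49% below probe alone and 7.14% below light alone. SRSF6 fell by 11.3% against DMSO (log2 fold change -0.17 ± 0.0505, adjusted p = 0.0284 in edgeR's quasi-likelihood test), and -0.17 against probe alone (0.144) and -0.13 against light alone (0.249) were not called. The DMSO call was lost without T-REX replicate 1 (adjusted p = 0.055), 2 (0.06) or 3 (0.093) or DMSO replicate 2 (0.067). At 3 h SRSF6 lay the other way, at 0.18 against DMSO, not called (adjusted p = 0.181), with 296, 294, 322 and 242 CPM under T-REX and 242, 276, 248 and 259 with DMSO. The change of its difference from DMSO between 3 and 12 h was -0.34 and was not called in edgeR's fit of all libraries (adjusted p = 0.126).

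Counted over members, all 4 T-REX libraries lay below all 4 libraries of DMSO for 5 members at 12 h (SRSF2, SRSF3, SRSF6, SRSF7 and TRA2A), as for 7.52% of all genes. The count was 5 against light alone (SRSF2, SRSF3, SRSF5, SRSF6 and SRSF7, 7.14% of genes) and 1 against probe alone (SRSF6, 4.49%). At 6 h it was 4 against light alone (SRSF4, SRSF2, SRSF3 and SRSF7, 2.83% of genes) and 2 against probe alone (SRSF4 and TRA2A, 3.3%). Against DMSO at 6 h it was 4 (SRSF4, SRSF5, SRSF7 and TRA2A, 3.47%). At 3 h it was 1 against light alone (SRSF2, 4.56%), probe alone (SRSF11, 6.48%) and DMSO (SRSF2, 7%). No member had all T-REX libraries above those of a control, but the share of all genes that did was not counted.

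The other 5 genes were not called in any comparison of arms. SRSF1, the founding SR protein, ranged from -0.05 to 0.04 in log2 fold change over the 9 comparisons with T-REX, with adjusted p of at least 0.54 in edgeR's quasi-likelihood test. SRSF4 ranged from -0.12 to 0.05. SRSF10, which represses splicing when it loses its phosphates, ranged from -0.10 to 0.00. SRSF11 ranged from -0.11 to 0.01, and TRA2A, a homologue of the fly sex-determination factor transformer-2, from -0.13 to 0.03. The lowest adjusted p in this group was 0.15, for SRSF11 against DMSO at 3 h. Among the controls themselves the log2 fold changes ran from -0.06 to 0.06 for SRSF1, -0.13 to 0.11 for SRSF4, -0.07 to 0.09 for SRSF10, -0.11 to 0.07 for SRSF11 and -0.15 to 0.08 for TRA2A.

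Among the controls, probe alone against DMSO at 12 h was the only comparison that called members, 2 of 10, both lower (SRSF2 and SRSF3), where 5.11% of all genes were called and 3.37% lower. The median of the 10 members was -0.102 there, with 10 of 10 below 0, beside 0.003 for all genes. At 12 h no member was called in light alone against DMSO (0.0136% of genes) or light alone against probe alone (0.415%). At 6 h none was called in light alone against DMSO (0.00681%), probe alone against DMSO (0.0272%) or light alone against probe alone (0.0613%), and at 3 h none in the same 3 comparisons (0.00681%, 0.00681% and 0.232%). At an unadjusted p under 0.05 these 8 comparisons held 0 to 3 members in edgeR. DESeq2 called 1 member in light alone against probe alone at each time and limma none.

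The comparison of times within an arm follows the same genes from 3 to 12 h. SRSF2, SRSF3 and SRSF6 fell in every arm, and SRSF5 rose in every arm. SRSF2 fell by 50.8% under T-REX (log2 fold change -1.02 ± 0.0779, adjusted p = 2.54e-14 in edgeR's quasi-likelihood test), and its change was -47.1% (-0.92) for light alone, -55.7% (-1.18) for probe alone and -43.2% (-0.82) for DMSO, all called. At 6 h the change of SRSF2 lay between -41.8% and -29.3% in the 4 arms, also called in each. SRSF6 fell by 45.2% under T-REX (-0.87 ± 0.0630, adjusted p = 1.71e-15), and its change was -35.9%, -35.3% and -30.5% in the light alone, probe alone and DMSO arms. At 6 h SRSF6 already stood at -0.73, -0.60, -0.65 and -0.52 in the same order. The change of SRSF3 at 12 h lay between -28.6% and -16.8%, called in all 4 arms. SRSF5 rose by 31.3% under T-REX (0.39 ± 0.0805, adjusted p = 0.000108), 38.6% in light alone, 54.5% in probe alone and 58.0% in DMSO (0.66), and at 6 h it was not called in any arm (0.06 to 0.19).

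**Figure D3:**
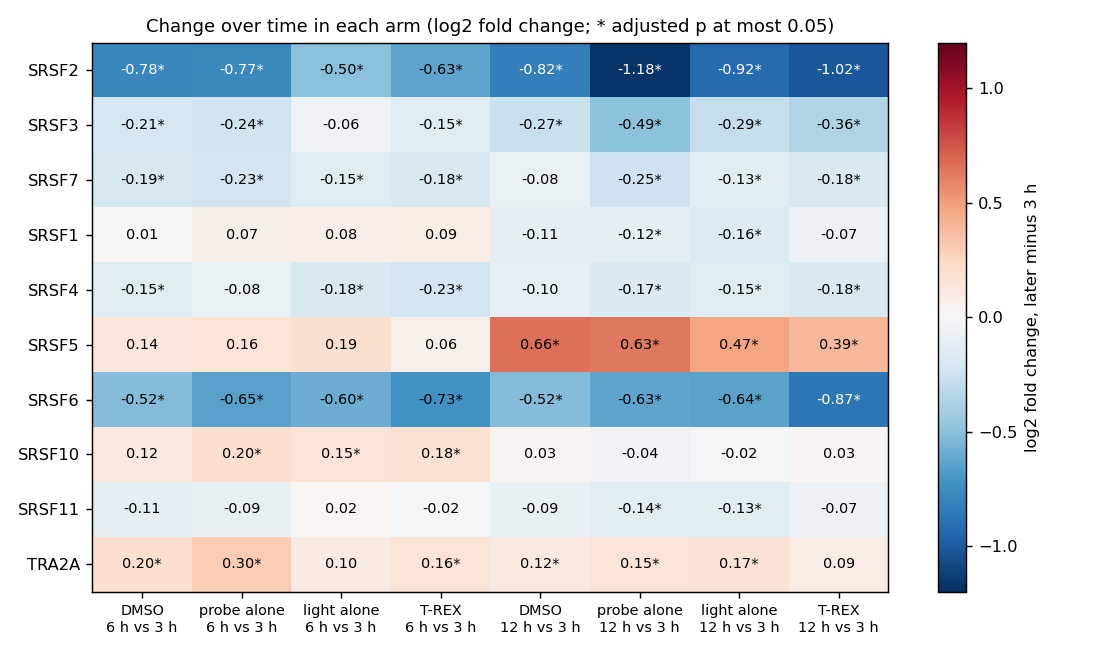
Each cell gives the log2 fold change of a gene between 6 or 12 h and 3 h within an arm, coloured from blue (lower) to red (higher), with a star for an adjusted p of at most 0.05. SRSF2 and SRSF6 are starred and below 0 in all 8 columns, and SRSF5 is starred and above 0 in the 4 columns at 12 h.

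The counts of members called over time stand beside large backgrounds. Between 3 and 12 h, 5 members were lower and 1 higher under T-REX (20.6% and 21.1% of all genes), 7 and 2 with light alone (19% and 20.4%), 7 and 2 with probe alone (21% and 21.3%) and 3 and 2 with DMSO (18.4% and 20.4%). Between 3 and 6 h, 5 were lower and 2 higher under T-REX (9.8% and 13.5%), 4 and 1 with light alone (11% and 14.3%), 4 and 2 with probe alone (10.5% and 11%) and 5 and 1 with DMSO (6.97% and 9.05%). The members' medians between 3 and 12 h were -0.126, -0.142, -0.157 and -0.092 in the 4 arms, beside -0.013, -0.008, 0.01 and 0.009 for all genes. SRSF7 was lower in all arms at 6 h (-0.23 to -0.15) and in 3 of 4 at 12 h (-0.25 to -0.08), and SRSF4 in 3 of 4 at each time. TRA2A was higher in 3 of 4 arms at each time (0.09 to 0.30), and SRSF10 in 3 of 4 at 6 h (0.12 to 0.20) and in none at 12 h (-0.04 to 0.03). SRSF1 and SRSF11 were called in light alone and probe alone at 12 h, all lower (-0.16 to -0.12). Some of the smaller calls were lost with 1 library fewer, while their log2 fold changes moved little. SRSF11 with light alone at 12 h (-0.13, or -0.14 to -0.11 with a library left out) was lost whichever of the 8 libraries compared was left out, SRSF1 with probe alone at 12 h (-0.12, or -0.14 to -0.11) with any but 12 h replicate 1 left out, and SRSF11 with probe alone at 12 h without 3 h replicate 1 or 2 or 12 h replicate 3 or 4. TRA2A with DMSO at 12 h was lost without 3 h replicate 1, 2 or 3 or 12 h replicate 2 or 3, SRSF7 with light alone at 12 h without 3 h replicate 1 or 12 h replicate 1 or 3, and at 6 h without 6 h replicate 4. SRSF10 at 6 h was lost under T-REX without 3 h replicate 3 and with light alone without 3 h replicate 4 or 6 h replicate 1 or 3. SRSF3 under T-REX at 6 h was lost without 3 h replicate 2 or 6 h replicate 4, and SRSF4 with DMSO at 6 h without 6 h replicate 3 or 4. Where these calls were lost, the sizes of the log2 fold changes lay between 0.11 and 0.14. The libraries of a time point form a set of their own, so time and set cannot be told apart, and NCBP1 also fell between 3 and 12 h in the T-REX (-0.40), light alone (-0.60) and DMSO (-0.64) arms. Its part in these changes was not tested.

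**Figure D4:**
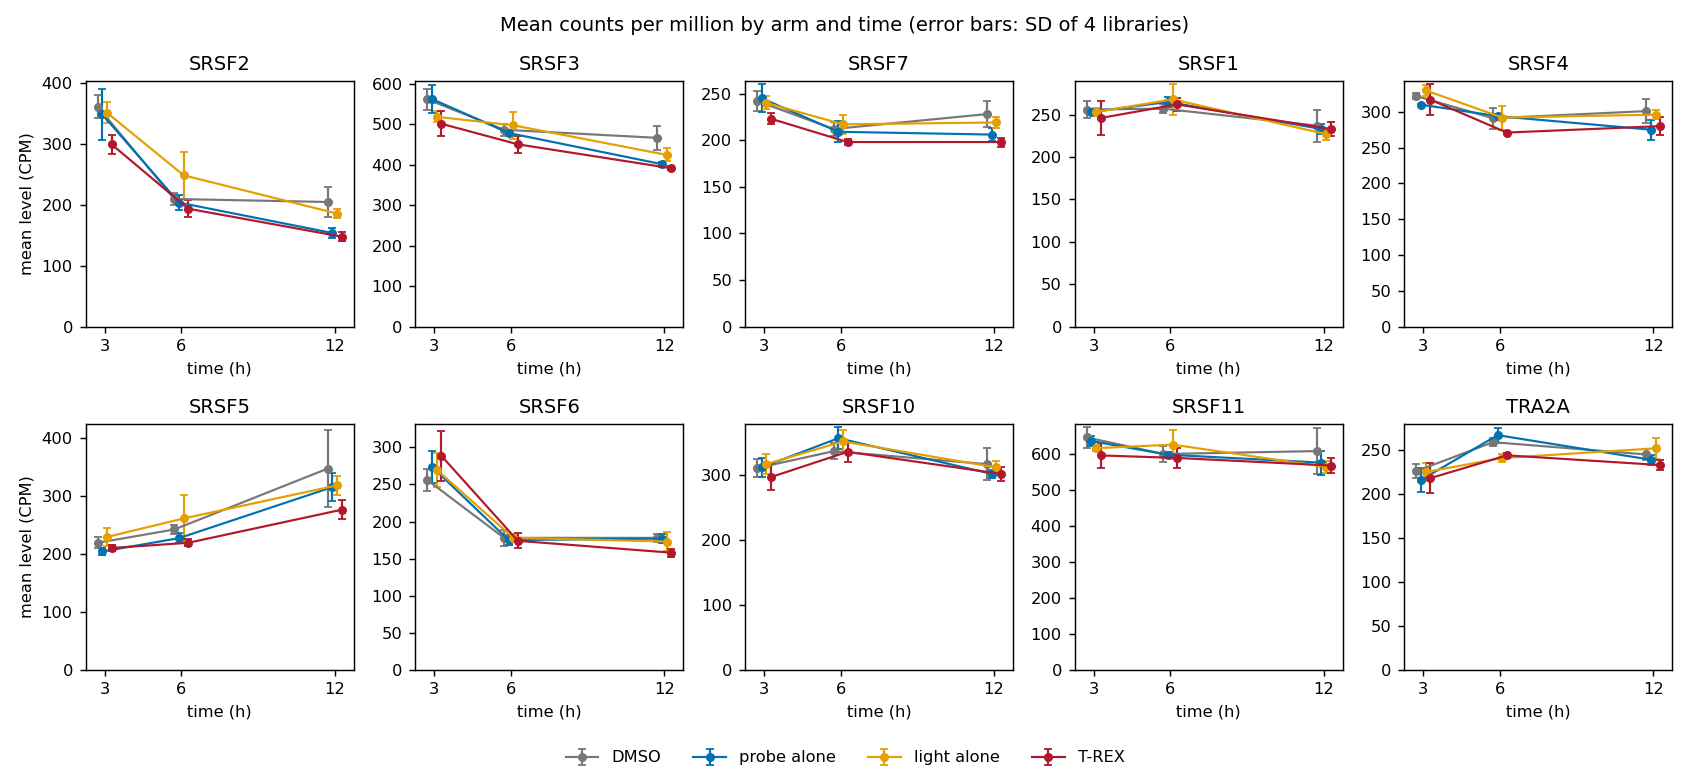
Mean level in CPM, on linear axes from 0, against time in hours for the 10 genes in each arm, with bars for the SD of 4 libraries. SRSF2 and SRSF6 drop mostly between 3 and 6 h, and SRSF5 climbs between 6 and 12 h.

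Ordered by mean level, the 12 groups of SRSF2 began with the 4 arms at 3 h (362 ± 18.8 CPM for DMSO, 352 ± 17.4 for light alone, 349 ± 42.5 for probe alone and 300 ± 15.6 under T-REX) and ended with light alone (186 ± 7.78), probe alone (154 ± 7.42) and T-REX (148 ± 7.64) at 12 h. Of the 11 steps between neighbours, 4 were larger than the larger SD of the pair, among them those on either side of T-REX at 3 h and that from light alone to probe alone at 12 h. The ratio of the highest group mean to the lowest was 2.45 for SRSF2, 1.83 for SRSF6, 1.7 for SRSF5 and 1.44 for SRSF3. It was 1.15 to 1.24 for the other 6, in which 0 or 1 of 11 steps exceeded the SD.

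The other genes of the pathway were followed as 3 lists. Of 18 other SR-related genes, 2 were called lower against DMSO at 12 h (SRSF9, a small SR protein, at -0.26 ± 0.0543, adjusted p = 0.00336, and LUC7L3, a relative of a yeast U1 snRNP component, at -0.25), beside 6.79% of all genes called lower, and 2 at 3 h, beside 4.54% (PNISR at -0.23 and LUC7L3 at -0.15, edgeR's adjusted p = 0.0422). Of 10 measured kinase, phosphatase and import genes, PPP1CA, a catalytic subunit of protein phosphatase 1, was lower against DMSO at 12 h (-0.27, adjusted p = 0.00831 in edgeR's quasi-likelihood test) and PRPF4B, a kinase of the spliceosome, at 3 h (-0.24, adjusted p = 0.00783). SRPK3 was not listed, and no SRPK, CLK or DYRK1A gene nor TNPO3, which imports SR proteins to the nucleus, was called. Of 6 partners at splice sites and in export, NXF1, the export receptor, was higher against DMSO at 12 h under T-REX (0.27 ± 0.0781, adjusted p = 0.0273, where 4.09% of all genes were called higher) and with probe alone (0.30, adjusted p = 0.0283). ZRSR2 (0.42) and SAFB (0.34) were higher under T-REX against DMSO at 3 h, beside 1.45% of all genes called higher. None of these 34 genes was called against light alone or probe alone at any time, where 0.109% to 1.29% of all genes were called. None met the rule of 2 controls, which at most 0.912% of all genes met downward at any time point. Among the largest differences that were not called, CLK4 ranged from -0.22 to 0.05 over the 9 comparisons with T-REX, RNPS1 from -0.18 to 0.24 and SNRNP70, a protein of the U1 snRNP, from -0.30 to 0.29.

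The same lists were followed over time. In the 4 arms between 3 and 12 h, 7 or 8 of the 18 other SR-related genes were lower and 2 or 3 higher, beside 18.4% to 21% and 20.4% to 21.3% of all genes, with the largest changes in SRRM1, a coactivator that bridges SR proteins (-0.55 to -0.44), NKTR (-0.48 to -0.34) and SON, a scaffold of nuclear speckles (-0.46 to -0.33), each lower in all 4 arms. PRPF4B (-0.37 to -0.16) and TNPO3 (-0.22 to -0.13) were lower in 4 of 4 arms, as were NXF1 (-0.60 to -0.31) and SAFB (-0.51 to -0.22). SRPK1 was lower in 2 of 4 arms (-0.25 to -0.05) and U2AF2, a subunit of U2AF, in 1 of 4 (-0.38 to -0.16).

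The genes most like the SR genes were sought by the Pearson correlation of log2 CPM over the 12 means of arm and time, which share libraries and a common time course. For SRSF2 it was RBM25 (r = 0.9928), for SRSF6 NAP1L3 (0.9892), for SRSF3 G3BP2 (0.9851), for SRSF5 FLOT1 (0.9772) and for SRSF7 SLC20A1 (0.9463). For SRSF10 it was TRA2B (0.939), which is itself an SR-related gene. It was FAM72A for SRSF1 (0.9612), CCNE2 for SRSF4 (0.9475), UBA2 for SRSF11 (0.9608) and SKIDA1 for TRA2A (0.9296). Each of these is the highest correlation among all non-member genes with a symbol, and the level that chance would give was not computed. The mean profile of the 10 members was most like that of CTDSPL2 (0.9807), ABT1 (0.9787), ZFP91 (0.971), RBM25 (0.9667) and PHAF1 (0.966).

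The annotation gives a further feature that the choice of members did not use. In GENCODE 29, all 10 genes have at least 1 transcript of the NMD type, as do 44.1% of the 11874 protein-coding genes in the tables, and 8 of 10 also have a transcript with a retained intron, against 33.9% with both types. SRSF7 has 6 NMD transcripts of 12, SRSF1 3 of 9, SRSF2 2 of 11, SRSF3 2 of 8 and SRSF6 1 of 2. The deposited values count reads per gene, so productive and NMD transcripts of an SR gene cannot be told apart in any fold change above. SRSF2 (chromosome 17) overlaps MFSD11 on the opposite strand, and SRSF1 (chromosome 17) overlaps a gene named AC015813.5. The libraries were stranded, but whether the counting used strand is not given in the sources used here, so the levels of SRSF2 and SRSF1 are uncertain to that extent.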

How the data were processed

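RNA of 48 HEK293T libraries was sequenced after stranded TruSeq preparation, with ribosomal RNA depleted, per the study's methods. The authors deposited whole-number counts per Ensembl gene, log2 CPM values and 2 factors of unwanted variation (RUV) per library, which are scores whose making is not stated. A deposited table of RUV-transformed values was not used. The submitters' notes name bcl2fastq, and the study's list of software gives TopHat (an aligner), cutadapt and Cufflinks for its RNA-seq. Whether these made the deposited counts, and on which build, is not given in the sources used here. Counts were tested with edgeR 4.0.16 (R 4.3.3) by the quasi-likelihood test, with TMM factors and filterByExpr, which removed 0 of 14685 genes. Arms were compared in a fit of the 16 libraries of a time point, and times and interactions in a fit of all 48. P-values were adjusted by Benjamini-Hochberg over all genes. Levels are CPM of the TMM-scaled library, and intervals use the t quantile at the degrees of freedom of the fit. Total counts lay between 23952455 and 37099535, and no replicates were duplicates. Alternatives were RLE factors, no filter, the RUV factors as covariates, a block for the replicate number, only the 2 arms compared, limma 3.58.1 on the deposited log2 CPM, DESeq2 1.42.0 and leaving out each library. The scripts were tested on simulated data. The members and lists were chosen with earlier results of these data known. Named genes are the 10 members, NCBP1, and list genes called against at least 2 controls plus at most 3 others per list with the largest log2 fold change. Other list genes called between arms (SRSF9 and NXF1) were named after their values were seen. Gene models came from GENCODE 29 and promoters from RefSeq.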

Additional observations from a re-analysis of the deposited data

Results flagged for a closer look

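In 6 of 120 groups of 4 libraries, 1 library lay apart from the other 3, with a gap to the nearest library, as a share of the group's range, above Dixon's 95% critical value. Chance gives about 1 in 20 such groups, so 6 of 120 is near that rate. SRSF2 stood at 223 CPM in probe alone 6 h replicate 3 against 197 to 199 in the others (gap 0.92). SRSF5 stood at 278 CPM in probe alone 12 h replicate 4 against 324 to 329 (gap 0.90). SRSF10 stood at 291 CPM in DMSO 3 h replicate 3 (gap 0.88) and at 312 CPM in probe alone 12 h replicate 1 (gap 0.93). SRSF11 stood at 609 CPM in probe alone 6 h replicate 1 (gap 0.98) and SRSF4 at 316 CPM in DMSO 3 h replicate 1 (gap 0.84).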

How the results depend on the processing

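SRSF2 and SRSF3 against DMSO and SRSF2 against light alone at 12 h were called under all 23 alternatives, at -0.53 to -0.38, -0.29 to -0.21 and -0.36 to -0.30 in log2 fold change. RLE factors changed no call. The setting with no filter, also among the 23, could change none, because the filter had removed no gene. With only the 2 arms compared at 12 h, 5 members were called against light alone (1127 genes, from 189), 1 against probe alone (389, from 103), 2 against DMSO (366, from 1598), 0 for probe alone against DMSO (14, from 751) and 1 for light alone against probe alone (709, from 61). SRSF5, SRSF6 and SRSF7 against DMSO were then not called (adjusted p = 0.1, 0.096 and 0.069 in edgeR's quasi-likelihood test), and SRSF5 was not called by limma (adjusted p = 0.053). With the RUV factors as covariates the members called under T-REX against light alone, probe alone and DMSO were 1, 2 and 5 at 3 h (1733, 2551 and 3061 genes) 5, 1 and 1 at 6 h (1202, 257 and 1048 genes) and 6, 2 and 7 at 12 h (1266, 901 and 3925 genes). Among controls they were 2 for light alone against probe alone at 3 h (2176 genes), 2 for light alone against DMSO (1797) and 3 against probe alone (450) at 6 h, and 4, 5 and 2 at 12 h for light alone against DMSO, probe alone against DMSO and light alone against probe alone (1022, 3298 and 1231). DESeq2 called 2 members for T-REX against DMSO at 3 h (1200 genes, from 880), 1 for T-REX against light alone at 6 h, 1 for light alone against probe alone at each time and 1 for the time dependence against DMSO (134 genes, from 8).

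Same-numbered libraries did not pair throughout, though some did. The correlation of deviations ran from -0.636 to 0.572 at 3 h, -0.537 to 0.474 at 6 h and -0.357 to 0.236 at 12 h. Its medians were 0.0681, -0.00795 and 0.00177, and it passed 0.1 in 12, 10 and 8 of 24 pairs. In all, 16 of 48 libraries correlated best with their own number. The replicate block gave 2 members for T-REX against DMSO at 3 h and 1 against light alone at 6 h and changed no other count of members by over 1.5 times.

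Leaving out 1 library gave 0 to 2 members for T-REX against probe alone and against DMSO at 3 h and against light alone at 6 h, 1 to 2 against light alone, 0 to 1 against probe alone and 3 to 5 against DMSO at 12 h, 2 to 4 for probe alone against DMSO and 0 to 1 for light alone against probe alone at 12 h, and 0 to 1 for the latter at 3 h and for the time dependence against DMSO. SRSF6 at 6 h changed sign near 0, over -0.04 to 0.02 against probe alone and -0.07 to 0.00 against DMSO: 0.02 without T-REX replicate 2, 0.01 without T-REX replicate 3 or probe alone replicate 4 (against probe alone), and 0.00 without DMSO replicate 4 (against DMSO). Causes of these changes were not tested.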
